A study of Mus musculus with 16 samples.

Results

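The genes described here are 10 members of the NF-kB system in mouse mast cells: the 5 Rel-domain subunits Nfkb1, Nfkb2, Rel, Rela and Relb, and the 5 inhibitors Nfkbia, Nfkbib, Nfkbie, Nfkbiz and Tnfaip3. They were taken by gene symbol from the 39179 genes of the count tables, and all 10 were found and passed the filter on low counts. NF-kB is a family of dimeric transcription factors that inhibitor proteins of the IkB family hold in the cytoplasm of resting cells. When antigen crosslinks IgE on the high-affinity IgE receptor of a mast cell, kinases mark these inhibitors for destruction, the dimers enter the nucleus, and several genes of the system, inhibitors among them, are themselves known targets. Glucocorticoids such as dexamethasone act through a nuclear receptor and are known in many cell types to limit NF-kB output.

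Messenger RNA was sequenced from bone marrow derived mast cells (BMMCs) of PEP+/+ (wild-type) and PEP-/- mice, the latter lacking PEP, a tyrosine phosphatase encoded by Ptpn22. The marrow came from male C57BL/6 mice aged 8 to 10 weeks and was cultured for 4 weeks with stem cell factor and interleukin 3, so each library reads a cultured population and not mast cells of a tissue. All 16 libraries came from cells sensitized with IgE for 3 h, and the labels and the methods text give different IgE doses. In each genotype, 4 treatments were compared with 2 libraries each: IgE alone, IgE DNP (200 ng/ml dinitrophenyl antigen for 1 h), IgE DEX (100 nM dexamethasone for 8 h) and IgE DNP DEX (both). One library of each condition has a number in its label (replicate 1, the numbered set) and the other has a letter (replicate 2, the lettered set). The replicates are called biological, without naming separate animals or cultures, so p-values measure the spread between these libraries.

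Gene counts summed to between 8612531 and 22143526 per library (median 12814043.5). Ptpn22 read 11.3 to 175 CPM (counts relative to the library total, scaled between libraries) in the 8 PEP+/+ libraries and 0 to 3.03 CPM in the 8 PEP-/- libraries. The glucocorticoid-induced genes Tsc22d3, Fkbp5 and Per1 were higher in each of the 8 DEX libraries than in any of the others, for Tsc22d3 at 725 to 1280 against 43.9 to 134 CPM. The 10 mast cell markers checked summed to 68000 to 107000 CPM and none was under 1 CPM throughout. Macrophage markers summed to 1.6 to 6.52, neutrophil markers to 0 to 2.28, eosinophil markers to 0.173 to 8.06, dendritic cell markers to 0.147 to 2.48 and lymphocyte markers to 0 to 0.605 CPM, and the basophil genes Mcpt8 and Prss34 to 19.8 to 122 CPM. In bulk RNA, fewer cells of a type and less RNA per cell cannot be told apart.

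The sets stood apart for some members. In the lettered set, Nfkbiz was higher in 8 of 8 conditions, by 1.19 on the log2 scale on average, Relb in 8 of 8 by 0.73 and Rela in 8 of 8 by 0.33. Rel was lower in the lettered set in 7 of 8 conditions, with a mean log2 difference of -1.30. Differences are therefore also given between libraries of the same set, and the test is given with the set as a replicate block where that changes a call. What separates the sets was not tested.

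Upstream sequence of 7 members was at hand from RefSeq (GRCm38.p6), as 10 windows of 300 bases that run from 250 bases before to 50 after an annotated start. None was at hand for Nfkb1, Relb and Nfkbiz. The windows of Nfkbia and Tnfaip3, the members with the largest DNP response, and the first window of Nfkb2 and that of Rel are shown 5′ to 3′ on the gene's strand, with matches to the kB consensus, the motif that NF-kB dimers bind, in capitals.

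Nfkbia, chr12:55492598-55492897, minus strand: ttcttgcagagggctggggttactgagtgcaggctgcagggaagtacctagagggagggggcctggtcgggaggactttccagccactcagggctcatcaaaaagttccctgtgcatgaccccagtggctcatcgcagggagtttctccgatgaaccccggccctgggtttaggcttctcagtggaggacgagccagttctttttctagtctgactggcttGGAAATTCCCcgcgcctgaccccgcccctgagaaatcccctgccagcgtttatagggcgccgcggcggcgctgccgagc
Tnfaip3, chr10:19015361-19015660, minus strand: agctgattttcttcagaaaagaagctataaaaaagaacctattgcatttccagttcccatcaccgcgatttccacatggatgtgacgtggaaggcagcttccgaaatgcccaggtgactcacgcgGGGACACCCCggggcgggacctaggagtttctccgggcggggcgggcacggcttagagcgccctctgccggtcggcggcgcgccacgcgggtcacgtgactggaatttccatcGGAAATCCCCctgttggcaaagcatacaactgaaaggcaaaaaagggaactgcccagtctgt
Nfkb2, chr19:46304487-46304786, plus strand: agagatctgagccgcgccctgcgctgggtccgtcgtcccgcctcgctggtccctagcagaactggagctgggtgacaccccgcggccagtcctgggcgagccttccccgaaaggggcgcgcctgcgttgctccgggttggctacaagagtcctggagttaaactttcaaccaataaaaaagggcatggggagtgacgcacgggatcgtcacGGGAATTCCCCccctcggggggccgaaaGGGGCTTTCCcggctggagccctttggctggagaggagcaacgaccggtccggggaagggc
Rel, chr11:23770920-23771219, minus strand: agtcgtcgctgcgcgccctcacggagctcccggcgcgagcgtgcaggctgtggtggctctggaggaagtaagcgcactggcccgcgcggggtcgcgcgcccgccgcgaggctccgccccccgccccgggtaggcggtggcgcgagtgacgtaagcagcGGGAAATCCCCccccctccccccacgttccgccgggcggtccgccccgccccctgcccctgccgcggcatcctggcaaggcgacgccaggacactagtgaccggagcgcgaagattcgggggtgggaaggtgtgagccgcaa

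Both strands were searched. At least 1 match to the kB consensus lay in 7 of the 10 windows, from 5 of the 7 members (Nfkbia, Tnfaip3, Nfkb2, Rel and Nfkbie), against 8.46% of all 32851 promoter windows in the table. The match of Nfkbia, GGAAATTCCC, lay 29 to 20 bases before the start (chr12:55492667-55492676). In Tnfaip3 the nearer match, GGAAATCCCC, lay 12 to 3 bases before the start (chr10:19015413-19015422). Nfkb2 and Rel each carried 2 matches that overlap within a single capital run, and another Nfkb2 match is shared by its 2 other, overlapping windows. The windows of Rela and Nfkbib held no match, which says only that these letters are not in these bases. The glucocorticoid half-site AGAACA occurred in 1 of the 10 windows, the other Tnfaip3 window, against 19% of all windows, and the full site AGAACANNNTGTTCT, which contains that half-site on both strands, in none of the 10 against 0.00913%. These matches are descriptions of sequence and not measured binding.

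Levels after IgE alone were put per kb of each gene's merged annotated exons (CPM per kb, mean ± SD over the 4 libraries of both genotypes). That length can exceed that of a single transcript. It was 12061 bases for Nfkb1 and 3072 for Rela, so the order depends on it. By CPM alone Nfkb1 (182 ± 41.3) lay above Rela (68.1 ± 9.95). Per kb, the level was highest for Rela, which encodes the main transactivating subunit p65, at 22.2 ± 3.24. Nfkb1, which encodes the p50 precursor p105, followed at 15.1 ± 3.42, and the inhibitors Nfkbie (14 ± 1.11), Nfkbib (13.7 ± 2.26) and Nfkbia (12.6 ± 0.523) and the subunit Nfkb2 (11.1 ± 1.49) came next. Per kb the libraries of Rela lay above those of the rest, while each of these 5 overlapped its neighbours in that order. Tnfaip3 (6.75 ± 0.933) stood below them, and Relb (3.69 ± 0.895), Nfkbiz (3.22 ± 1.30) and Rel (2.19 ± 1.61) were lowest and overlapped each other. Per kb, Nfkbia was 5th of the 10 after IgE and the highest of the 10 under each of the other treatments. It read 171 ± 66.1 CPM per kb with DNP, 98.5 ± 11.5 with DEX and 194 ± 53.4 with both.

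**Figure D1:**
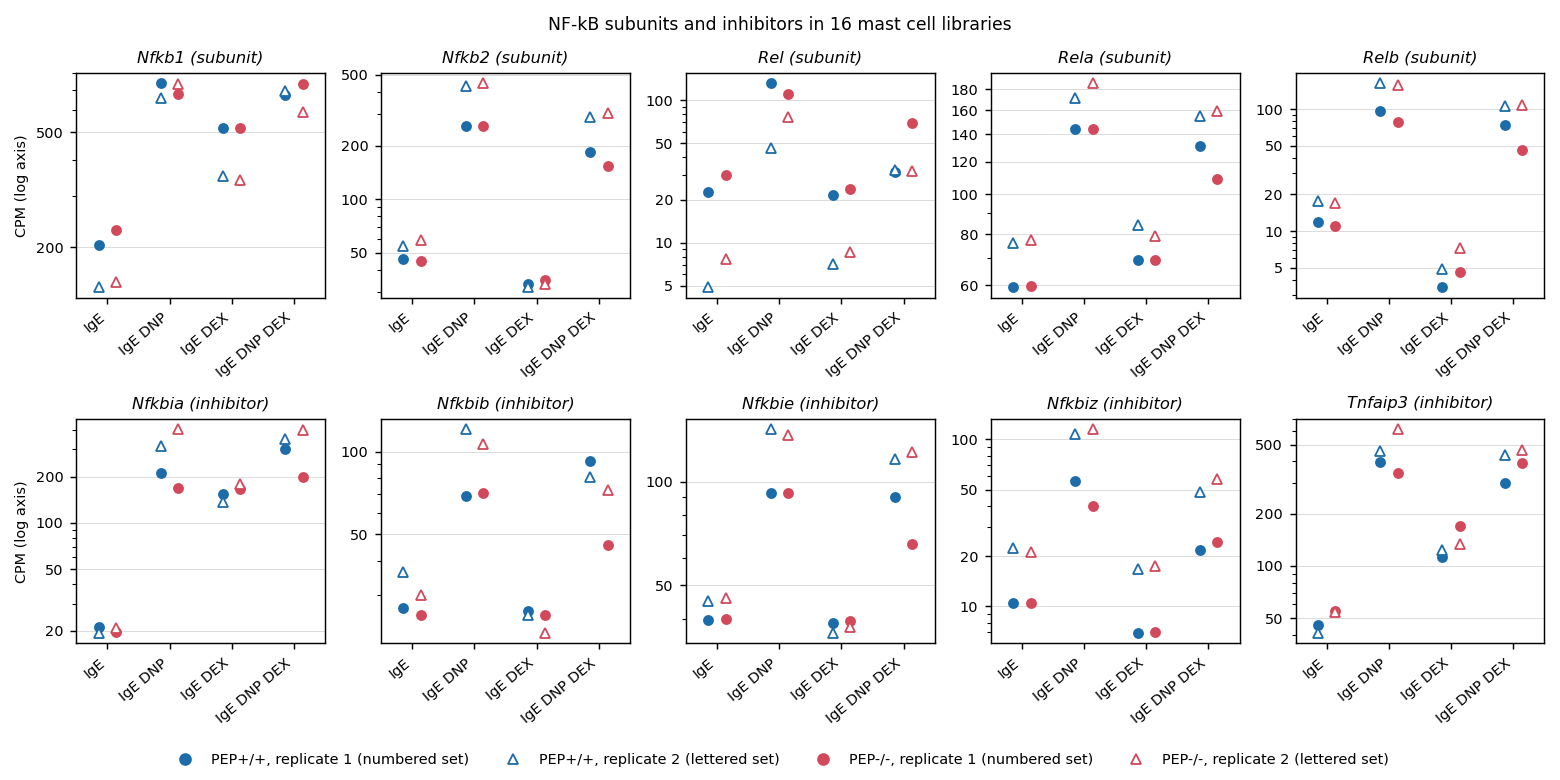
Each point is 1 of the 16 libraries; the vertical axis is CPM on a log scale, the horizontal axis the treatment, colour the genotype and shape the replicate set. Nfkbia lies at 19.3 to 21.1 CPM in the 4 IgE libraries and at 136 CPM or more in the other 12, while Relb falls from 10.9 to 17.7 CPM after IgE to 3.45 to 7.22 CPM after IgE DEX.

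The first question was what antigen does to the system without DEX. After 1 h of DNP all 10 members rose when both genotypes were averaged, against 9.07% of the 13305 genes tested that rose (edgeR's quasi-likelihood test, Benjamini-Hochberg adjusted p under 0.05 over all genes tested, 4 libraries against 4). Each of the 10 was higher in 4 of 4 comparisons within a genotype and set. The summed eosinophil markers were higher without overlap as well, from 0.173 to 2.09 CPM after IgE to 2.81 to 7.79 CPM after IgE DNP. Of these 3 genes, Epx had no count in any library, Prg2 stayed at or under 0.521 CPM, and Siglecf made up the rest. Their part in the members' differences was not tested. The largest log2 fold changes were those of the inhibitors Nfkbia and Tnfaip3 and of Relb, and the smallest was that of Rela.

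Among the subunits, Nfkb1 read 203 and 145 CPM in the PEP+/+ IgE libraries (replicates 1 and 2) and 230 and 151 in the PEP-/- IgE libraries. After IgE DNP it read 739 and 657 in PEP+/+ and 679 and 738 in PEP-/-, with no overlap, a log2 fold change of 1.95 ± 0.21 (SE, adjusted p = 8.01e-05). Nfkb2, which encodes p100, the precursor of p52, read 45.8 and 54.6 CPM in PEP+/+ and 44.8 and 58.8 in PEP-/- after IgE, and 258 and 433 in PEP+/+ and 258 and 448 in PEP-/- after IgE DNP. The genotypes were nearly level within each set, and the log2 fold change was 2.78 ± 0.28 (adjusted p = 5.67e-05). Exons of Nfkb2 overlap those of Psd and AC114539.1 on the other strand, and the strand setting of the counting is not given in the sources used here.

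Relb, the partner of p52 in the non-canonical pathway, read 11.8 and 17.7 CPM in PEP+/+ and 10.9 and 16.9 in PEP-/- after IgE, and 96.9 and 162 in PEP+/+ and 78.1 and 157 in PEP-/- after IgE DNP. The lettered library was the higher one each time, and the groups were far apart, with a log2 fold change of 3.10 ± 0.36 (adjusted p = 0.000142). Rela read 59.3 to 77.3 CPM after IgE and 144 to 186 after IgE DNP, a log2 fold change of 1.24 ± 0.17 (adjusted p = 0.000499).

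Rel, which encodes c-Rel, a subunit known mostly from lymphocytes, was the most variable subunit. It read 22.8 and 4.86 CPM in PEP+/+ and 30.0 and 7.71 in PEP-/- after IgE, and 131 and 45.9 in PEP+/+ and 111 and 75.6 in PEP-/- after IgE DNP. The numbered library was higher in each of these pairs, and the treatment groups still did not overlap. The log2 fold change was 2.49 ± 0.63 (adjusted p = 0.0194). The call was lost without PEP+/+ IgE DNP replicate 1 (2.01, adjusted p = 0.067), PEP+/+ IgE replicate 2 (2.13, 0.0657) or PEP-/- IgE replicate 2 (2.15, 0.0782). The log2 fold change was highest without PEP+/+ IgE replicate 1 (3.25) or PEP-/- IgE replicate 1 (3.13). The call was also lost where only the conditions compared were fitted (adjusted p = 0.0516).

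Among the inhibitors, Nfkbia, which encodes IkBa, the inhibitor that is resynthesized as negative feedback, read 21.1 and 19.3 CPM in PEP+/+ and 19.8 and 20.9 in PEP-/- after IgE. After IgE DNP it read 212 and 317 in PEP+/+ and 168 and 405 in PEP-/-. The IgE libraries lay within 2 CPM of each other and every DNP library far above them, a 13.5-fold difference (log2 3.76 ± 0.31, adjusted p = 1.09e-05). Tnfaip3, which encodes A20, a ubiquitin-editing enzyme that ends signalling upstream of the IkB kinases, read 45.5 and 40.9 CPM in PEP+/+ and 54.7 and 54.1 in PEP-/- after IgE, and 395 and 459 in PEP+/+ and 341 and 613 in PEP-/- after IgE DNP. That is a 9.31-fold difference (log2 3.22 ± 0.21, adjusted p = 1.91e-06).

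Nfkbib and Nfkbie, which encode the other cytoplasmic inhibitors IkBb and IkBe, rose less. Nfkbib read 25.4 to 36.4 CPM after IgE and 69.2 to 121 after IgE DNP (log2 fold change 1.63 ± 0.22, adjusted p = 0.000483), with exons that overlap Ccer2 and Sirt2 on the other strand. Nfkbie read 39.7 to 46.1 CPM after IgE and 92.5 to 142 after IgE DNP (1.45 ± 0.22, adjusted p = 0.000902). Nfkbiz encodes IkBz, an inducible nuclear family member that modulates NF-kB at its targets. It read 10.5 and 22.4 CPM in PEP+/+ and 10.5 and 21.2 in PEP-/- after IgE, and 56.4 and 108 in PEP+/+ and 39.9 and 115 in PEP-/- after IgE DNP (2.30 ± 0.53, adjusted p = 0.0115). The call was lost without PEP+/+ IgE replicate 1 (2.08, adjusted p = 0.0528), PEP-/- IgE replicate 1 (2.10, 0.0522) or PEP-/- IgE DNP replicate 2 (1.82, 0.0556).

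Within a genotype, with 2 libraries against 2, 8 of 10 members passed in PEP+/+ (against 4.01% of genes that rose) and 8 of 10 in PEP-/- (against 4.69%). Rel and Nfkbiz were the members that did not pass in either. Once the replicate block was fitted, all 10 passed for the average (against 18.6%) and all 10 in PEP+/+ (against 11.2%) and in PEP-/- (against 13.3%).

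**Figure D2:**
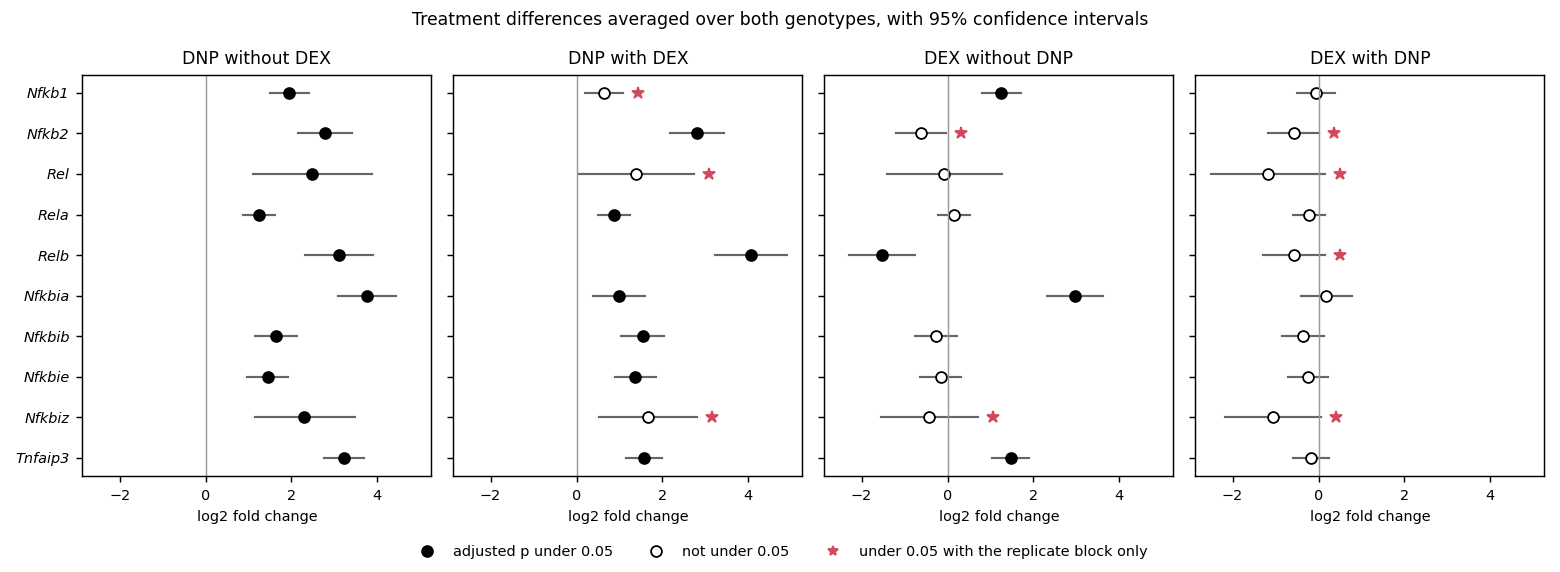
Log2 fold changes of the 10 members in the 4 treatment comparisons averaged over both genotypes, with 95% confidence intervals as bars; filled points have an adjusted p under 0.05, and a star beside a bar marks a gene under 0.05 only with the replicate block. All 10 points are filled for DNP without DEX and none for DEX with DNP, and Relb is the filled point below 0 for DEX without DNP.

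The second question was what DEX does in sensitized cells that receive no antigen. Nfkbia, Tnfaip3 and Nfkb1 rose, 3 of 10 members against 5.4% of genes that rose, and Relb fell, 1 of 10 against 3.98% that fell. Nfkbia read 153 and 136 CPM in PEP+/+ and 165 and 180 in PEP-/- after IgE DEX, all far above the 19.3 to 21.1 CPM after IgE. The log2 fold change was 2.96 ± 0.30 (7.77-fold, adjusted p = 8.3e-05).

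Tnfaip3 read 113 and 124 CPM in PEP+/+ and 169 and 134 in PEP-/- after IgE DEX, above all 4 IgE libraries, with a log2 fold change of 1.47 ± 0.20 (adjusted p = 0.000627). Nfkb1 read 519 and 352 CPM in PEP+/+ and 516 and 342 in PEP-/-, against 145 to 230 after IgE, and the log2 fold change was 1.25 ± 0.20 (adjusted p = 0.00255). The numbered libraries were the higher ones, and both sets moved alike, by 1.26 and 1.23 on average in the numbered and the lettered set.

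Relb read 3.45 and 4.92 CPM in PEP+/+ and 4.62 and 7.22 in PEP-/- after IgE DEX, below every IgE library. It was 2.89-fold lower (log2 -1.53 ± 0.35, adjusted p = 0.0183) and lower in 4 of 4 comparisons within a genotype and set. The call was lost without PEP+/+ IgE DEX replicate 1 (-1.42, adjusted p = 0.0749), PEP-/- IgE DEX replicate 1 (-1.38, 0.0846), PEP+/+ IgE replicate 2 (-1.37, 0.0647) or PEP-/- IgE replicate 2 (-1.35, 0.0719). Within a genotype Relb passed with the replicate block (-1.83, adjusted p = 1.83e-05 in PEP+/+ and -1.22, adjusted p = 0.000533 in PEP-/-) and not without it (adjusted p = 0.0892 and 0.288).

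The other members gave log2 differences of -0.62 (Nfkb2), -0.43 (Nfkbiz), -0.26 (Nfkbib), -0.16 (Nfkbie), -0.08 (Rel) and 0.15 (Rela), with adjusted p between 0.229 and 0.979. Nfkb2 read 31.8 to 35.2 CPM after IgE DEX and 44.8 to 58.8 after IgE, so its groups did not overlap. Under the replicate block, Nfkb2 (-0.58, adjusted p = 0.0155) and Nfkbiz (-0.46, adjusted p = 0.00691) passed as lower beside Relb, 3 of 10 against 13.8% of genes, and the members that rose were again 3 of 10, against 12.9%. Nfkb2 passed without the filter on low counts too (-0.61, adjusted p = 0.0435).

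The third question was whether DEX changes the members in cells that also receive antigen. Without the replicate block none of the 10 passed between IgE DNP DEX and IgE DNP, where 10.7% of all genes did (5.67% higher, 4.99% lower). At an unadjusted p under 0.05 there was 1 member, Nfkb2, and DESeq2 called none. With the block 4 of the 10 passed as lower, against 17.4% of genes. Nfkbia read 303 and 349 CPM in PEP+/+ and 198 and 400 in PEP-/- after IgE DNP DEX, across the range after IgE DNP, and its log2 difference was 0.18 (95% confidence interval -0.42 to 0.78, adjusted p = 0.778). Nfkb1 read 673 and 697 CPM in PEP+/+ and 733 and 589 in PEP-/- (-0.06, interval -0.51 to 0.38), and Tnfaip3 302 and 438 in PEP+/+ and 392 and 468 in PEP-/- (-0.18, interval -0.60 to 0.24).

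The largest differences were those of Rel (-1.17, interval -2.50 to 0.16, adjusted p = 0.277) and Nfkbiz (-1.07, interval -2.19 to 0.05, adjusted p = 0.232). Rel read 31.5 and 32.2 CPM in PEP+/+ and 69.6 and 32.1 in PEP-/- after IgE DNP DEX, and Nfkbiz 21.7 and 48.1 in PEP+/+ and 24.3 and 58.3 in PEP-/-. Both overlapped their IgE DNP levels, yet each was lower in 4 of 4 comparisons within a genotype and set, as were Nfkb2, Rela, Relb and Nfkbie. With the replicate block 4 of 10 members passed as lower, against 17.4% of genes that fell (none rose, against 15.9%). They were Nfkbiz (-1.07 ± 0.10, adjusted p = 2.29e-06), Relb (-0.57 ± 0.11, 0.00139), Rel (-1.08 ± 0.26, 0.00491) and Nfkb2 (-0.59 ± 0.16, 0.0102). Without the block the SE was 0.51 for Nfkbiz and 0.60 for Rel, and the intervals above are from that fit. Relb and Nfkbiz also passed with the block in each genotype alone, Relb at -0.51 (adjusted p = 0.0388) in PEP+/+ and -0.64 (0.0122) in PEP-/-, and Nfkbiz at -1.28 (3.69e-05) and -0.86 (0.000781). Without the filter on low counts Rel (-1.16, adjusted p = 4.46e-06) and Nfkbiz (-1.06, 5.64e-05) passed, among 1788 genes in either direction. Their log2 differences were nearly the same as with the filter, so only the p-values moved, and why was not tested.

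The same libraries were also read as the response to DNP in cells that had received DEX, with IgE DEX as the control. Here 7 of 10 members rose, against 7.19% of genes. The mast cell markers summed to 84000 to 107000 CPM after IgE DNP DEX and to 74100 to 82700 CPM after IgE DEX, without overlap, and their part in these differences was not tested. Relb had the largest difference, from 3.45 to 7.22 CPM after IgE DEX to 73.9 and 105 in PEP+/+ and 46.3 and 108 in PEP-/-, which is 16.7-fold (log2 4.06 ± 0.38, adjusted p = 6.12e-05). Nfkb2 rose from 31.8 to 35.2 CPM to 184 and 289 in PEP+/+ and 154 and 306 in PEP-/- (2.81 ± 0.28, adjusted p = 9.7e-05). Neither gene's groups overlapped.

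Tnfaip3 (1.57), Nfkbib (1.54), Nfkbie (1.37) and Rela (0.88) rose as well, with adjusted p between 0.000382 and 0.00646. Nfkbia rose 1.98-fold (log2 0.98 ± 0.28, adjusted p = 0.0392). That call held in 5 of the 16 fits that left out 1 library each, those without either PEP+/+ IgE DNP library, either PEP-/- IgE DNP library or PEP-/- IgE DNP DEX replicate 1. In the other fits the adjusted p was up to 0.16, with the lowest log2 value, 0.70, without PEP-/- IgE DNP DEX replicate 2. Nfkb1 (0.64, adjusted p = 0.0628), Rel (1.39, 0.174) and Nfkbiz (1.67, 0.061) did not pass. All 10 passed with the replicate block, against 18.4% of genes. So did all 10 without the filter on low counts, where 1880 genes passed in either direction. DESeq2 called Nfkb1 (adjusted p = 0.0229) and Nfkbiz (0.00765) besides the 7, among 2229 genes called in either direction.

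**Figure D3:**
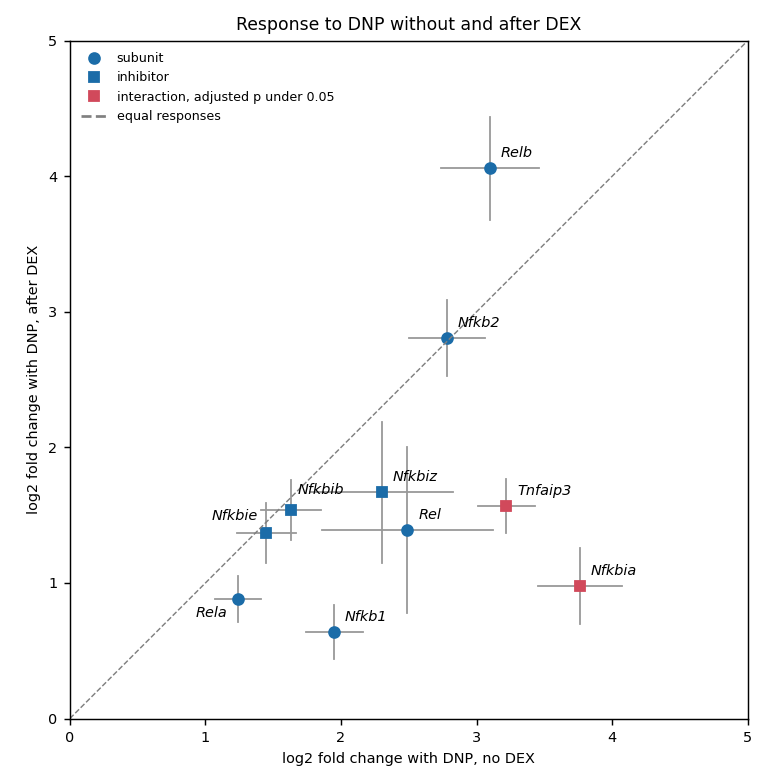
Log2 fold change with DNP after DEX (vertical) against that without DEX (horizontal) for the 10 members, with bars of 1 SE; the dashed line marks equal responses, circles are subunits and squares inhibitors. Nfkbia (3.76 and 0.98) and Tnfaip3 (3.22 and 1.57) lie farthest below the line, Nfkb2 on it and Relb above it.

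Whether the DNP response differs with DEX was tested by the interaction term. It was negative for Nfkbia and Tnfaip3, 2 of 10 members against 0.271% of genes with a lower response. For Nfkbia the same-set DNP differences were 3.33 and 4.03 (PEP+/+, numbered and lettered) and 3.08 and 4.27 (PEP-/-) on the log2 scale without DEX, and 0.98, 1.36, 0.26 and 1.15 in the same order with DEX. These ranges did not overlap, and the interaction was -2.78 ± 0.40 (adjusted p = 0.0164). It lost its call without PEP+/+ IgE DNP DEX replicate 1 (adjusted p = 0.0747) or 2 (0.0652), PEP-/- IgE replicate 1 (0.0629) or 2 (0.0697), or PEP-/- IgE DEX replicate 1 (0.0532).

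For Tnfaip3 the DNP differences were 3.11, 3.49, 2.64 and 3.5 without DEX and 1.42, 1.82, 1.22 and 1.80 with DEX, again with no overlap, and the interaction was -1.64 ± 0.27 (adjusted p = 0.0346). That call held in 2 of the 16 fits that left out 1 library, those without PEP+/+ IgE DNP DEX replicate 2 or PEP-/- IgE DNP replicate 1. Over all 16 fits its value stayed between -1.79 and -1.37, with adjusted p up to 0.129. Nfkbia and Tnfaip3 also passed with the replicate block (-2.77 and -1.64, adjusted p = 0.000142 and 0.000942) and in DESeq2 (adjusted p = 1.69e-08 and 1.25e-05). Both genes had risen with DEX alone, and after DNP their levels with and without DEX overlapped.

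Nfkb1 gave an interaction of -1.31 ± 0.29 (adjusted p = 0.145), and passed with the replicate block (-1.32, adjusted p = 0.00135), so that 3 of 10 were lower against 1.07% of genes. DESeq2 (adjusted p = 0.00522) and edgeR without the filter on low counts (0.00298) also called it. Relb went the other way, with an interaction of 0.96 ± 0.48 (adjusted p = 1) that passed with the block (0.95, adjusted p = 0.012), 1 of 10 higher against 0.496% of genes. Without the block no member was higher, against 0.0601%. The remaining members lay between -1.10 (Rel) and 0.03 (Nfkb2), none of them called in either fit.

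The ratio of inhibitor to subunit transcripts was described as the summed CPM per kb of the 5 inhibitors over that of the 5 subunits. Among the inhibitors it counts Nfkbiz, of a nuclear protein, and Tnfaip3, of an enzyme, so it does not measure cytoplasmic inhibitors alone. It was 0.849 to 0.997 in the 4 IgE libraries, 1.14 to 1.68 after IgE DNP, 1.79 to 2.42 after IgE DEX and 1.49 to 2.00 after IgE DNP DEX. The IgE libraries lay below all the others, and the IgE DEX libraries above all IgE DNP libraries. Nfkbia made up 22.4 to 27.9% of the inhibitor sum after IgE, 46.9 to 55.5% after IgE DNP, 65.7 to 71.5% after IgE DEX and 54.7 to 62.3% after IgE DNP DEX. These sums are of transcripts and not of proteins, they depend on the merged exon lengths, and no test was run on them.

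**Figure D4:**
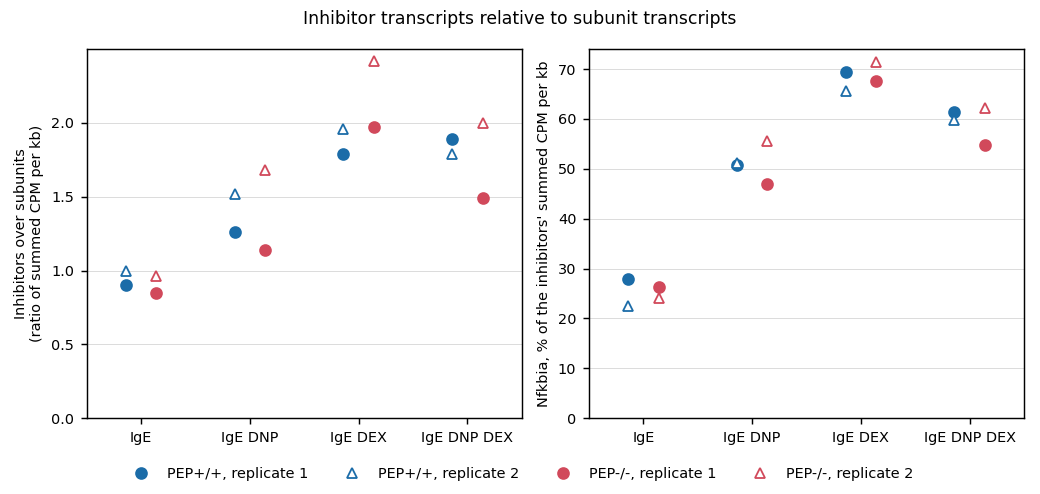
Left, the summed CPM per kb of the 5 inhibitors divided by that of the 5 subunits in each of the 16 libraries; right, the percent of the inhibitor sum that is Nfkbia. Both axes start at 0, and the 4 IgE libraries are the lowest on both sides, at 0.849 to 0.997 and 22.4 to 27.9%.

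The fourth question was whether loss of PEP changes the members. Without the replicate block none of the 10 passed for the genotype averaged over the treatments, against 1.59% of genes. In that fit none had an unadjusted p under 0.05. DESeq2 called none either. The log2 differences (PEP-/- minus PEP+/+) ran from -0.24 (Nfkbib) to 0.35 (Rel), and their 95% confidence intervals together spanned -0.76 to 1.28. Tnfaip3 was higher in PEP-/- in 7 of 8 comparisons within a treatment and set and Nfkbib in 1 of 8, with differences of 0.27 (adjusted p = 0.427) and -0.24 (adjusted p = 0.562). Also with the replicate block none of the 10 passed, where 17.4% of genes did.

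Within each single treatment none of the 10 passed, against 0.00752% of genes in each. The widest range was after IgE DNP DEX, from -0.55 (Nfkbib) to 0.68 (Rel), with intervals from -1.34 to 2.54. With the replicate block none of the 10 passed in a single treatment either, against 1.69% of genes in IgE cells, 1.86% in IgE DNP cells, 0.564% in IgE DEX cells and 0.0225% where both agents were given. The blocked values nearest to a call were those of Relb after IgE DEX (0.51, adjusted p = 0.351) and Nfkbib after IgE DNP DEX (-0.59, adjusted p = 0.414). Their unadjusted p were 0.03 and 0.0199. In those treatments 1554 and 1426 of the 13305 genes had an unadjusted p under 0.05. The interactions of genotype with DNP (-0.35 to 0.10 over the members) and of genotype with DEX in DNP-treated cells (-0.45 to 0.60) gave no call among the members, against 0% of genes, and no member had an unadjusted p under 0.05 in either.

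**Figure D5:**
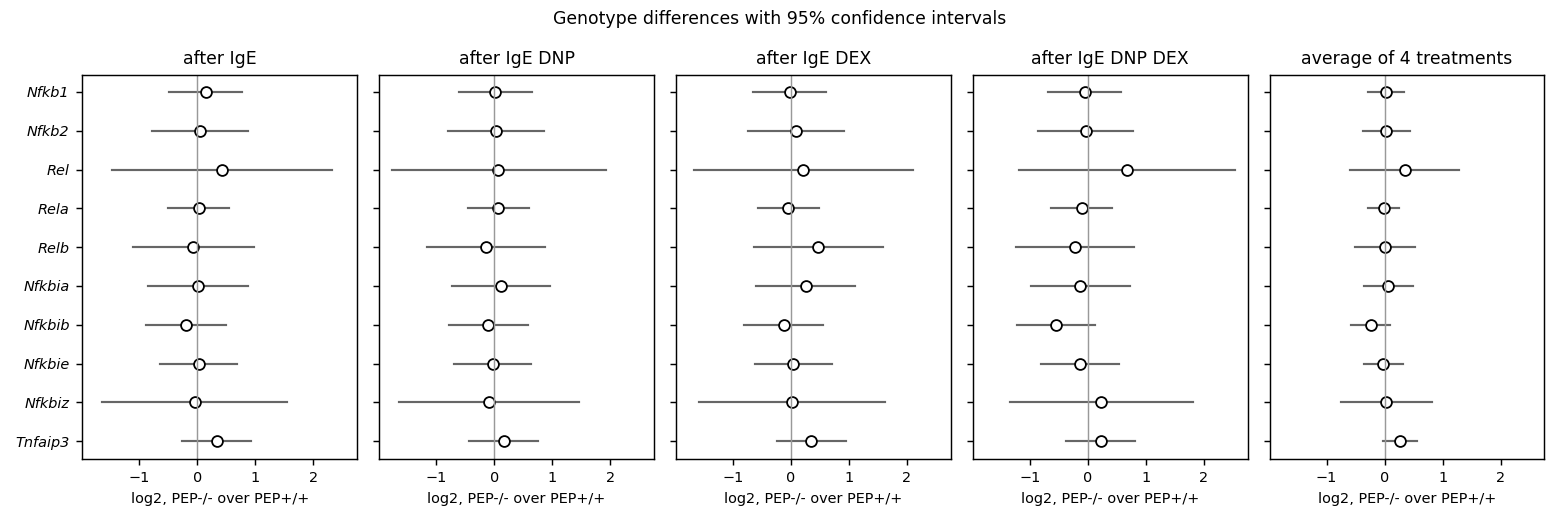
Log2 differences of PEP-/- over PEP+/+ for the 10 members after each treatment and averaged over the 4 treatments, with 95% confidence intervals as bars and open points for genes with an adjusted p not under 0.05. All points are open and each interval spans 0, with Rel and Nfkbiz the widest.

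Across the 16 libraries the members differed in whose profile they followed. Pearson's r of log2 CPM was 0.99 between Nfkb2 and Nfkbie, 0.98 between Nfkb2 and Relb and 0.98 between Nfkbib and Nfkbie. Nfkbia, Nfkb1 and Tnfaip3, the members that rose with DEX alone, had r of 0.93 and 0.94 with each other, and Nfkbia had r of 0.52 with Relb. Among 8361 other genes of at least 10 CPM on average, those most like Nfkbia were Gimap5 (0.961), Tnip1 (0.950), which encodes an A20-binding protein, and Trip10 (0.943). Among those most like Nfkb1 were Rnf19b (0.965) and Ptgs2 (0.960), which encodes cyclooxygenase-2. These r are descriptions over 16 libraries that share treatments and sets.

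The other pathway genes, 44 adaptors, kinases, IkB family members and regulators, were all tested. After DNP without DEX 18 rose and 2 fell, against 9.07% and 7.58% of all genes, with a median log2 fold change of 0.20 against 0.00 for all genes (20 and 5 with the replicate block, against 18.6% and 19.3%). Tnip3, an A20-binding protein, went from 0.455 to 0.520 CPM to 67.0 to 204 CPM, and Nfkbid, a nuclear IkB family member, from 9.20 to 21.1 to 1110 to 2420 CPM. Bcl3, another nuclear family member, rose by 3.88 ± 0.46 on the log2 scale. Tab1, an adaptor of the kinase TAK1, fell by 1.03 and Myd88, the adaptor of Toll-like receptors, fell by 0.44.

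With DEX alone 5 of the 44 rose and 2 fell, against 5.4% and 3.98% of all genes, with a median of -0.04 (7 and 12 with the replicate block, against 12.9% and 13.8%). Map3k8, a kinase of the ERK and NF-kB pathways, rose by 1.42 ± 0.22, Tnip1 by 0.86 ± 0.17 and Zc3h12a, an RNase that degrades inflammatory transcripts, by 0.79 ± 0.21, while Rnf11, a partner of A20, fell by 0.52. Between IgE DNP DEX and IgE DNP 1 of the 44 rose and 5 fell, against 5.67% and 4.99% of all genes (median -0.24, all genes -0.01). Irak3, an inhibitory member of the interleukin 1 receptor-associated kinase family, was the one that rose (1.24 ± 0.15). Tnip3 (-2.93) and Ripk2 (-0.99), a kinase below the NOD receptors, were among those that fell. Under the replicate block 4 rose and 17 fell, against 15.9% and 17.4%. After DNP with DEX 13 rose and 1, Myd88 (-0.37), fell, against 7.19% and 5.42% of all genes, with a median of 0.14 (18 and 4 with the replicate block, against 18.4% and 19.2%). Tnip3, Nfkbid (6.17) and Bcl3 (4.48) had the largest differences, Tnip3 from 0 to 0.126 CPM to 9.63 to 26.7 CPM.

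Of 38 textbook NF-kB targets, 29 passed the filter on low counts, so the counts below leave out 9 that were too low in these cells. A target read almost only with DNP could still pass, as Csf2 below did. The filter can therefore favour a rise with DNP, and a fall with DEX in DNP-treated cells, in the shares and medians of the targets. All 13305 genes tested passed the same filter, and its part in these values was not tested. After DNP without DEX 19 of the 29 rose and 1 fell, against 9.07% and 7.58% of all genes, with a median of 2.30 (21 and 2 with the replicate block, against 18.6% and 19.3%). The cytokine Tnf went from 0.566 to 1.82 CPM to 156 to 464 CPM and the chemokine Ccl4 from 3.75 to 4.94 to 881 to 1710 CPM. The cytokine Csf2 went from at most 0.0911 CPM to 3.28 to 21.4 CPM, and Irf1, a transcription factor of the interferon response, fell by 1.42 on the log2 scale. With DEX alone 2 of the 29 rose and 6 fell, against 5.4% and 3.98% of all genes, with a median of -0.24 (4 and 7 with the replicate block, against 12.9% and 13.8%). Those that rose were Ptgs2 (3.52 ± 0.71) and Birc3 (1.45 ± 0.20), an inhibitor of apoptosis, and Tnfaip2 (-2.15), Ccl4 (-1.08) and the chemokine Ccl2 (-0.91) fell most.

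Between IgE DNP DEX and IgE DNP, 1 of the 29 targets rose and 10 fell, against 5.67% and 4.99% of all genes. Their median was -0.74. Without the replicate block no member passed there, with median log2 differences of -0.57 for the subunits and -0.24 for the inhibitors. With the block 4 of the 10 members passed as lower, against 17.4% of genes. The cytokine Il1a fell from 22.6 to 56.3 CPM to 1.04 to 4.00 CPM and the chemokine Ccl3 from 481 to 1000 CPM to 39.6 to 65.2 CPM. Csf2 fell from 3.28 to 21.4 CPM to 0.156 to 1.19 CPM, and Birc3 rose by 1.44 ± 0.20. For the targets the replicate block gave 4 that rose and 17 that fell, against 15.9% and 17.4%. After DNP with DEX 17 rose and none fell, against 7.19% and 5.42% of all genes, with a median of 1.22 (20 and 1 with the replicate block, against 18.4% and 19.2%). Among them were Gadd45b, a stress response gene (6.32 ± 0.32), and Ccl4 (6.00 ± 0.31). Csf2 had no count in the 4 IgE DEX libraries and read only 0.156 to 1.19 CPM after IgE DNP DEX. With a floor of 3 counts over the IgE DEX libraries (0.0471 CPM), its mean was at least 11.6-fold higher. That bound leaves out the spread between the IgE DNP DEX libraries. With it in place of the fitted value the median was the same.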

How the data were processed

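mRNA of 16 BMMC libraries was sequenced. Per the labels and the methods text, the authors aligned paired-end reads with TopHat2 to GRCm38 and counted reads per gene with HTSeq, and they deposited raw counts per gene. Rows that name no gene held 29.05 to 49.62% of each library's entries and were left out. Symbols, positions and exon lengths came from GENCODE M21 (GRCm38), which named 37607 of 39179 genes. Counts were fitted with edgeR 4.0.16 in R 4.3.3 (TMM scaling, filterByExpr with a minimum count of 10, quasi-likelihood test, 1 coefficient for each of 8 conditions, 8 residual degrees of freedom), p-values were adjusted by Benjamini-Hochberg over 13305 genes, and a call is an adjusted p under 0.05. The common biological coefficient of variation was 0.312. CPM use the TMM-scaled library totals.

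All 28 pairs of conditions had deviations from their condition means that correlated over 0.1 between libraries of the same set (lowest 0.447, median 0.699), so the numbered and lettered sets were taken to pair the libraries. The fit reported first has no term for this pairing, and the fit with the replicate block has one. The confidence intervals and the fits that left out 1 library come without that term. So do the SEs, unless the replicate block is named, and they include the difference between the sets. The pairing comes from the labels, which do not say what a set shares.

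Alternatives were DESeq2 1.42.0, its size factors in edgeR, no filter, the replicate block, the compared conditions alone, and leaving out each of the 16 libraries. The members and lists were chosen with earlier results of these data known. Named genes were all members and, of the 44 other pathway genes and 38 textbook targets, up to 3 called genes with the largest positive and 3 with the largest negative log2 fold change in each of the 4 treatment comparisons, plus the 3 genes most like Nfkbia and Nfkb1 and 4 check genes. Some genes that this rule names are not reported here. Scripts were tested on simulated data. Motifs were searched in RefSeq promoter windows of GRCm38.p6.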

Additional observations from a re-analysis of the deposited data

Results flagged for a closer look

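The response of Nfkbia to DNP was smaller in cells that had received DEX than in cells that had not, by an edgeR interaction of -2.78 on the log2 scale (SE 0.40, adjusted p = 0.0164). The response of Tnfaip3 was smaller by -1.64 (SE 0.27, adjusted p = 0.0346). Of the 16 fits that left out 1 library, the call held in 11 for Nfkbia and in 2 for Tnfaip3. Over all genes the interaction had 44 calls as reported and 12 to 27 in these fits. With the replicate block both genes passed (adjusted p = 0.000142 and 0.000942), and also in DESeq2 (1.69e-08 and 1.25e-05). Both were singled out because the same contrast differed between DEX-treated and untreated cells by a test of the difference itself. Both genes also rose with DEX alone, by 2.96 and 1.47, and after DNP their levels with and without DEX overlapped, at 198 to 400 and 168 to 405 CPM for Nfkbia and 302 to 468 and 341 to 613 CPM for Tnfaip3.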

How the results depend on the processing

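Each condition had 2 libraries. How far the spread between libraries or the read depth limits the calls was not tested. Members called for DEX with DNP were 0 in the fit as reported, 4 with the replicate block and 2 with no filter on low counts, and for the DNP by DEX interaction 2 as reported, 4 with the replicate block and 0 to 2 when 1 library was left out. The cause of these differences was not tested. Among the values averaged over the genotypes or the treatments, those that changed sign with the replicate block were the interaction of Nfkb2 (0.03 as reported, 0 once rounded) and the genotype difference of Relb (0.01, then -0.01), and the block changed no other call among them than those given above. Within a single genotype the block added calls beside those given for DNP without DEX, and it took none away. For DEX without DNP it added Relb and Nfkbiz in PEP+/+ and Nfkb1 and Relb in PEP-/-. Members called were then 5 and 4, against 15.6% and 14.7% of genes in either direction. For DEX with DNP it added Rel, Relb and Nfkbiz in PEP+/+ and Relb and Nfkbiz in PEP-/- as lower, against 9.76% and 9.33% of genes. For DNP with DEX it added Nfkb1, Rel, Rela and Nfkbiz in each genotype and Nfkbia in PEP+/+ alone. That gave 10 members as higher in PEP+/+ and 9 in PEP-/-, against 11.7% and 10.3% of genes. DESeq2 size factors in edgeR changed no call. Changes of sign on leaving out 1 library fell on uncalled values only. For DEX without DNP, Rel ranged from -0.58 to 0.69. For DEX with DNP, Nfkb1 ranged from -0.13 to 0.03, Nfkbia from -0.10 to 0.58 and Tnfaip3 from -0.34 to 0.08. For the interaction, Nfkb2 ranged from -0.23 to 0.29, Nfkbib from -0.25 to 0.17 and Nfkbie from -0.30 to 0.15. For the genotype average, Nfkb1 ranged from -0.06 to 0.10, Nfkb2 from -0.12 to 0.13, Rela from -0.09 to 0.05, Relb from -0.18 to 0.13, Nfkbia from -0.13 to 0.19, Nfkbie from -0.16 to 0.07 and Nfkbiz from -0.21 to 0.22. Over all genes, the replicate block raised the calls from 2216 to 5042 for DNP without DEX, 1247 to 3548 for DEX without DNP, 1418 to 4429 for DEX with DNP, 1678 to 5007 for DNP with DEX, 44 to 209 for the interaction and 212 to 2310 for the genotype average. Fitting only the conditions compared gave 805 for DEX with DNP and 953 for DNP with DEX. The filter left off gave 107 for the interaction, 472 for the genotype average, 3 for genotype by DNP and 24 for genotype by DEX with DNP (0 as reported for both), and DESeq2 gave 96 for the interaction and 668 for the genotype average. Leaving out 1 library gave 1390 to 2251 for DNP without DEX (lowest without PEP-/- IgE DNP replicate 2 or PEP-/- IgE replicate 2), 845 to 1269 for DEX without DNP, 852 to 1317 for DEX with DNP (lowest without PEP-/- IgE DNP replicate 2), 927 to 1604 for DNP with DEX (lowest without PEP+/+ IgE DEX replicate 2), 12 to 27 for the interaction and 57 to 203 for the genotype average, so the shares of all genes that the members are set against move with single libraries. For the interaction each of the 16 libraries lowered the count by over 1.5 times when left out, and for the genotype average 12 of the 16 did.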
